A study of Homo sapiens with 27 samples.

Results

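The 10 genes described here encode enzymes of glycolysis and of lactate formation: HK2, GPI, ALDOA, TPI1, GAPDH, PGK1, PGAM1, ENO1, PKM and LDHA. They were chosen by gene symbol and found through the Ensembl gene ID of the deposited expression table, which holds 34464 genes. All 10 were in the table, and all 10 passed the filter of a mean above 1 FPKM (fragments per kilobase of transcript, scaled to the sequencing depth) that kept 14611 genes.

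The data are RNA Frac-Seq, in which poly(A)+ RNA of cell fractions was sequenced, from U2OS cells, a human osteosarcoma line. Cells received a lentivirus with a control shRNA or with an shRNA against TPR, named TPR A or TPR D, and were harvested after 5 days. TPR is a filamentous protein of the basket on the inner face of the nuclear pore. From each culture a part of the cells was kept for total RNA and the rest was split with detergent into a nuclear and a cytoplasmic/ER fraction, which gave 27 libraries from 9 cultures, 3 for each shRNA. All groups shared the cell line, the medium and the lentiviral delivery, and a replicate here is one such culture.

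Glycolysis turns glucose into pyruvate in the cytosol, and lactate dehydrogenase then turns pyruvate into lactate. Hexokinase phosphorylates glucose, GPI and ALDOA carry it to triose phosphates, and TPI1 interconverts these. GAPDH, PGK1, PGAM1, ENO1 and PKM then carry out the lower steps of the pathway, which yield its ATP. These mRNAs are among the abundant ones of growing and tumour cells, several of the genes are known targets of the hypoxia-inducible factor HIF1 and of MYC, and GAPDH is widely used as a reference gene for RNA measurements.

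A single promoter is shown for each of 4 of the genes, all 4 with a match to the motifs named next. GAPDH, LDHA and PGK1 are among the 9 of the 10 that moved together between libraries, as described below, and HK2 is not. Whether promoter motifs bear on that movement was not tested. HIF1 binds elements with the core ACGTG, and MYC binds the E-box CACGTG, which holds that core on both strands. The sequences run from 250 bases before to 50 bases after the transcription start in RefSeq on GRCh38.p14, read 5′ to 3′ on the plus strand, the strand of all 4 genes, and capitals mark that core on either strand.
GAPDH, chr12:6535014-6535313: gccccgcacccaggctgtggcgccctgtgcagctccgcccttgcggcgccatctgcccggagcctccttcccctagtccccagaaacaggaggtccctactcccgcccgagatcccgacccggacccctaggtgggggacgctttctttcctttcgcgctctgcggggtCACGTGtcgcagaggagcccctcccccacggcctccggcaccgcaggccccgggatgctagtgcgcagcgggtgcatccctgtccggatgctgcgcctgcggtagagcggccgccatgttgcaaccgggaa
LDHA, chr11:18394313-18394612: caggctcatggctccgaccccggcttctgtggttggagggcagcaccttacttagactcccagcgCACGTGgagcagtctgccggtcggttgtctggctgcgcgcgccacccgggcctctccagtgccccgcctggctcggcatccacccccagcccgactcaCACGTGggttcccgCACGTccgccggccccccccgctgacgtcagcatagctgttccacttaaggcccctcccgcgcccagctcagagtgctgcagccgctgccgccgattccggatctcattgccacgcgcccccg
PGK1, chrX:78103998-78104297: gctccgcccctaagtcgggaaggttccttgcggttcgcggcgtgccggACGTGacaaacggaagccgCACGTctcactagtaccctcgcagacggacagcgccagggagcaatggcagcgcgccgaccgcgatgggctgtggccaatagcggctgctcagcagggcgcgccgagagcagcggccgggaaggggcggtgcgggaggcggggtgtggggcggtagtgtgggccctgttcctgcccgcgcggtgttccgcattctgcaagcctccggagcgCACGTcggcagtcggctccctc
HK2, chr2:74834920-74835219: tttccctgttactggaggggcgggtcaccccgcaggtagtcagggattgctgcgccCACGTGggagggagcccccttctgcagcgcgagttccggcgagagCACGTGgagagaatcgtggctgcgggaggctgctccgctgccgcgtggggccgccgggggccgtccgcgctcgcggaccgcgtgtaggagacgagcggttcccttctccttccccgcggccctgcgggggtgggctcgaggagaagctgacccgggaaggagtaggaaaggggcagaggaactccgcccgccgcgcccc
In the promoters shown, GAPDH held 1 E-box, LDHA 2 E-boxes and a further match to the core, PGK1 3 core matches with no E-box, and HK2 2 E-boxes. LDHA and HK2 each had another listed promoter that is not shown. That of LDHA, at chr11:18396101-18396400, held no match. That of HK2, at chr2:74833877-74834176, held 2 core matches with no E-box. The core on either strand stood in at least one listed promoter of 7 of the 10 genes (70.0%), against 32.4% of the 10634 analysed genes with a promoter in the table. The 3 without a match were ENO1, PGAM1 and PKM, which are also among the 9 that moved together. Matches are a description of these letters, and binding was not measured. The RefSeq starts were not matched to the annotation used below for gene structure. Whether the measured mRNAs began at them was not tested.

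In the annotation used for gene structure (GENCODE release 44 mapped to GRCh37), GAPDH lies at chr12:6643678-6647540 and TPI1 at chr12:6976283-6980112, both on the plus strand. GAPDH, ALDOA, TPI1 and PGAM1 had a median pre-mRNA under 10 kb over their protein-coding transcripts, from 2555 nt for TPI1 to 7254 nt for PGAM1. HK2, at chr2:75061254-75120486, was the long gene of the group when the longest transcript was taken, with 59233 nt and 18 exons. The median of the 10 genes was 7.5 exons and 11260 nt of pre-mRNA, against 7 exons and 22871 nt over 12333 protein-coding genes.

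Some mRNAs share sequence with other genes, which matters because reads were assigned to transcripts by Salmon. Of the 31-base words of the longest coding transcript, 48.6% of those of PGAM1 also stood in the retrocopy PGAM4, which was at most 0.400 FPKM in any library. Of the words of ENO1, 227 of 1752 stood in other genes. The share was 22.3% for GPI and 5.66% for PGK1, and under 1% for ALDOA and LDHA. GAPDH, TPI1, PKM and HK2 shared none, within the protein-coding and lncRNA transcripts compared.

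TPR fell in both knockdowns: its total level was 28.2, 24.3 and 25.9 FPKM in control cells, 4.49, 3.55 and 4.86 with TPR A and 3.39, 4.90 and 6.30 with TPR D (log2 differences -2.59 and -2.44, limma adjusted p = 0.00120 and 0.00160). Of the libraries, 2 stood apart. Transcripts of the mitochondrial genome, which sit outside the nucleus, took 15.8 to 24.7% of FPKM in the other total libraries, 0.774 to 2.42% in the other nuclear ones and 26.5 to 37.9% in the other cytoplasmic/ER ones. In control replicate 2 the library labelled total held 0.738% and the library labelled nuclear 21.8%, and each correlated best with the libraries of the other of these labels. Both were kept under their labels, and differences from control and control nuclear minus cytoplasmic/ER differences are given with and without them where they bear on a gene or count named below. The osteosarcoma and mesenchymal markers VIM and SPARC were at medians of 1156 and 444.6 FPKM in total RNA, and the blood marker HBB was at 0 in all libraries. As estimated from the steps of one read in low values, 1 FPKM on 1 kb of transcript stood for 32.5 to 89.7 reads in a library, so that even HK2, at 1.82 FPKM or more on a transcript of 5626 nt, rested on many reads.

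All levels below are FPKM divided by a median-of-ratios factor for each library, and because FPKM are shares of a library they do not give molecules per cell. FPKM are per length and can be compared between genes. GAPDH was the highest of the 10 in all 27 libraries, with a mean over libraries of 6423 FPKM and a range of 2704 to 15915. ENO1 (2693), PKM (2194), LDHA (1793) and ALDOA (1508) followed, then TPI1 (1119), PGK1 (497.5), PGAM1 (410.5), GPI (268.2) and HK2 (6.16). Some neighbours in this order were not separated: ENO1 was above PKM in 24 of 27 libraries, PKM above LDHA in 19, LDHA above ALDOA in 19 and PGK1 above PGAM1 in 20. The other steps of the order, from GAPDH to ENO1, from ALDOA through TPI1 to PGK1 and from PGAM1 through GPI to HK2, held in all 27.

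**Figure D1:**
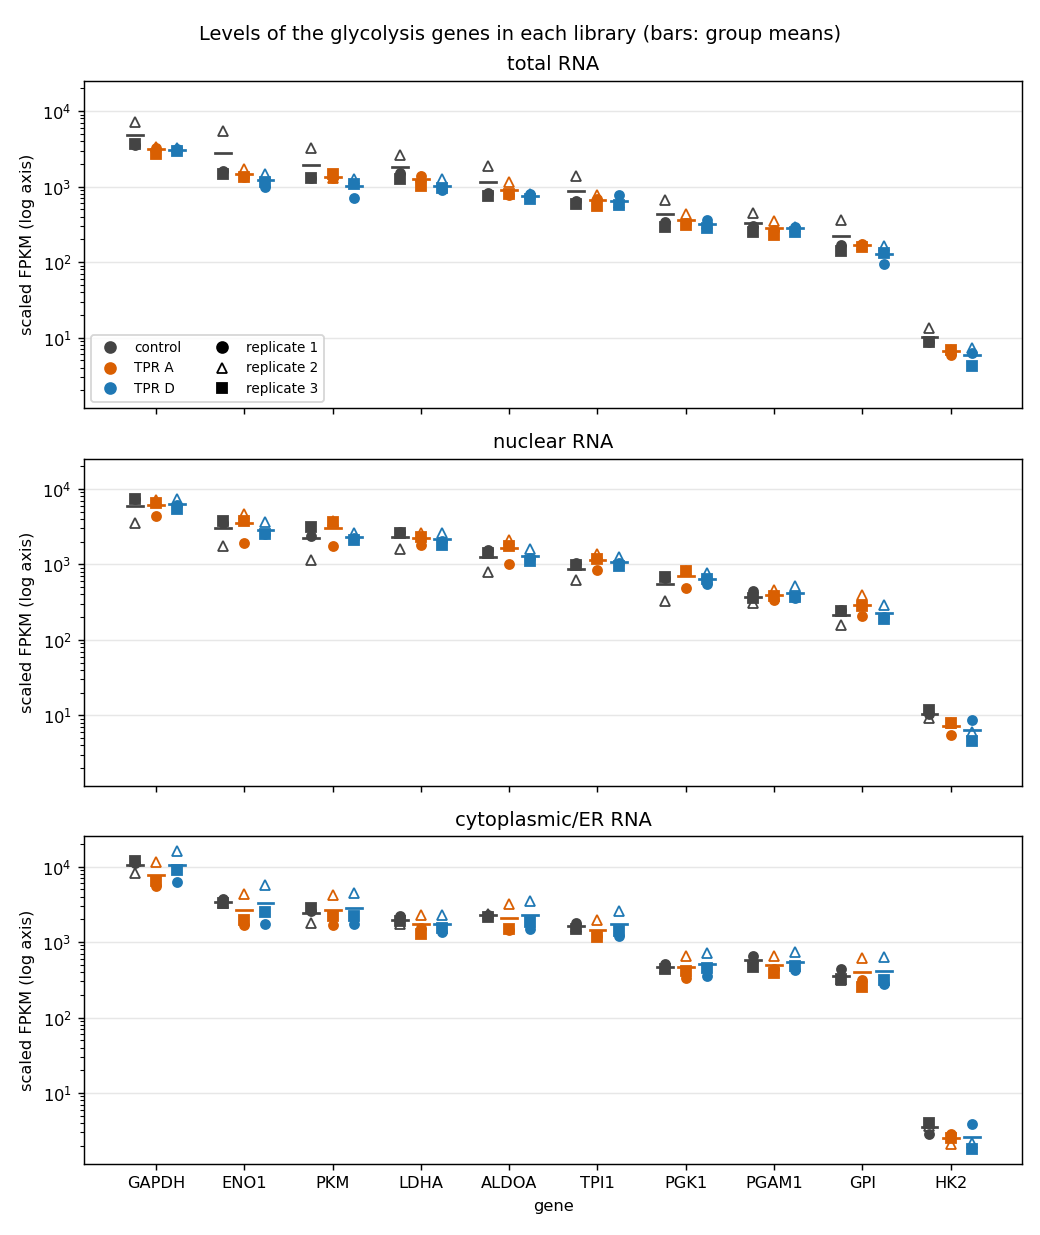
Level of each gene in each library (scaled FPKM on a log axis) in total, nuclear and cytoplasmic/ER RNA. Circles, open triangles and squares are replicates 1, 2 and 3, colours are the shRNAs and short bars are group means. GAPDH lies between 2704 and 15915 and HK2 between 1.82 and 13.3, and in the total panel the control triangle (replicate 2) lies above the other libraries of every gene.

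Together the 10 mRNAs made up 0.994 to 1.45% of non-mitochondrial FPKM in total RNA, 1.62 to 2.60% in nuclear RNA and 1.42 to 2.62% in cytoplasmic/ER RNA, leaving out the total and nuclear libraries of control replicate 2 and the cytoplasmic/ER one of the same culture, which held 2.52, 1.42 and 1.59%. Among genes outside the mitochondrial genome, GAPDH alone ranked 9th to 24th in total RNA, 3rd to 9th in nuclear RNA and 5th to 18th in cytoplasmic/ER RNA in those other libraries.

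HK2, which phosphorylates glucose at the entry of the pathway, was the low member and the nuclear one. Its total level was 8.72, 13.3 and 8.67 in control cells, 5.92, 6.91 and 6.90 with TPR A and 6.27, 7.37 and 4.20 with TPR D. In nuclear RNA it was 10.3, 9.35 and 11.7 in control cells, 5.57, 7.95 and 7.97 with TPR A and 8.79, 6.05 and 4.54 with TPR D, and in cytoplasmic/ER RNA 2.89, 3.63 and 3.99 in control cells, 2.87, 2.14 and 2.52 with TPR A and 3.83, 2.16 and 1.82 with TPR D. Nuclear HK2 was thus above cytoplasmic/ER HK2 in every culture, as for 24.0% of all genes. All TPR-depleted libraries lay below all control libraries in total RNA, like 2.98% of all genes, and in nuclear RNA, like 3.24%. HK1, the other widely expressed hexokinase, was at 89.6, 243 and 89.4 FPKM in control total RNA, above HK2 in each of these libraries, and its highest value was that of the doubtful replicate 2 library.

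GPI, which converts glucose phosphate to fructose phosphate, had a total level of 167, 366 and 140.4 in control cells, 176, 171 and 157 with TPR A and 93.2, 164 and 130.3 with TPR D. Its nuclear level was 247, 156 and 238 in control cells, 209, 389 and 277 with TPR A and 203, 289 and 189 with TPR D, and its cytoplasmic/ER level 433, 318 and 320.3 in control cells, 315, 621 and 250.3 with TPR A and 274, 633 and 317 with TPR D. The cytoplasmic/ER libraries of replicate 2 were the highest of both TPR shRNAs, and the values of TPR A and TPR D lay on both sides of the control values.

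ALDOA, the aldolase that splits fructose bisphosphate into triose phosphates, was at 813, 1878 and 746 in control cells, 775, 1139 and 792 with TPR A and 801, 793 and 693 with TPR D in total RNA. It was at 1533, 803 and 1427 in control cells, 1018, 2126 and 1753 with TPR A and 1227, 1574 and 1094 with TPR D in the nuclear fraction. In the cytoplasmic/ER fraction the values were 2289, 2353 and 2147 in control cells, 1452, 3192 and 1502 with TPR A and 1495, 3466 and 1839 with TPR D. The 3 control cytoplasmic/ER values lay close together, whereas those of TPR A and TPR D spread around them on both sides.

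TPI1, which interconverts the triose phosphates, measured 649.8, 1369 and 581 in control cells, 684, 766 and 546 with TPR A and 768, 606 and 576 with TPR D in total RNA. The nuclear values were 1026, 611 and 967 in control cells, 842, 1389 and 1172 with TPR A and 1053, 1258 and 952 with TPR D. The cytoplasmic/ER values were 1781, 1600.5 and 1473 in control cells, 1217, 1986 and 1164 with TPR A and 1214, 2540.0 and 1418 with TPR D. In control cells each cytoplasmic/ER library was above each nuclear one, as for GPI, ALDOA, GAPDH and PGAM1. How many of all genes showed this was not counted.

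GAPDH, which oxidises glyceraldehyde 3-phosphate, measured 3541, 7109 and 3655 in control cells, 3244, 3369 and 2704 with TPR A and 3148, 3202 and 2949 with TPR D in total RNA. Nuclear GAPDH was 7227, 3479.7 and 7285 in control cells, 4372, 7197 and 6582 with TPR A and 6192, 7359.7 and 5332 with TPR D. Cytoplasmic/ER GAPDH was 11045, 8142 and 11794 in control cells, 5589, 11313 and 6365 with TPR A and 6217, 15915 and 9091 with TPR D. In total RNA the 6 TPR-depleted libraries lay below the 3 control libraries, like 2.98% of all genes. In the fractions the groups overlapped, and the highest cytoplasmic/ER value, 15915, was of a TPR D library.

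PGK1, which makes the first ATP of the pathway, was at 345, 665 and 292 in control cells, 328, 428 and 313 with TPR A and 367, 322 and 285 with TPR D in total RNA. Nuclear PGK1 was 654, 328 and 688 in control cells, 487, 827 and 813 with TPR A and 550.5, 765 and 632 with TPR D, and cytoplasmic/ER PGK1 515, 447 and 444 in control cells, 339, 652 and 414 with TPR A and 359, 723 and 451 with TPR D. Nuclear values exceeded cytoplasmic/ER values in every culture but control replicate 2, and 27.3% of all genes did so in those other cultures.

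PGAM1, the phosphoglycerate mutase, was the steadiest of the 10 between replicates, with a within-group SD of 0.31 on the log2 scale. Its total level was 306, 449 and 249 in control cells, 269, 349.8 and 232 with TPR A and 295, 293 and 251 with TPR D. The nuclear level was 445, 312 and 359 in control cells, 341, 457 and 382 with TPR A and 362, 515 and 364 with TPR D and the cytoplasmic/ER level 647, 617 and 470.0 in control cells, 442, 649.5 and 393 with TPR A and 422, 733 and 482 with TPR D. It was the one member with nuclear below cytoplasmic/ER values in all 9 cultures, as for 23.9% of all genes.

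ENO1, the enolase, was the least steady, with a within-group SD of 0.62 on the log2 scale, above 89.3% of all genes. In total RNA it was 1603, 5383 and 1482 in control cells, 1346, 1711 and 1359 with TPR A and 1002, 1493 and 1161 with TPR D. In nuclear RNA it measured 3575, 1744 and 3696 in control cells, 1935, 4706 and 3795 with TPR A and 2522, 3594 and 2518 with TPR D. In cytoplasmic/ER RNA it measured 3662, 3240.1 and 3254 in control cells, 1661, 4313 and 1973 with TPR A and 1756, 5717 and 2509 with TPR D. The control total library of replicate 2 was far above the other control total libraries, and TPR A and control total levels overlapped with and without it.

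PKM, the pyruvate kinase, was at 1285, 3228 and 1318 in control cells, 1289.7, 1283 and 1469 with TPR A and 698, 1265 and 1094 with TPR D in total RNA. It was at 2387, 1152 and 3117 in control cells, 1759, 3797 and 3632 with TPR A and 2230.1, 2566 and 2084 with TPR D in nuclear RNA and at 2588, 1789 and 2784 in control cells, 1668, 4175 and 2185 with TPR A and 1717, 4457 and 2223 with TPR D in cytoplasmic/ER RNA. TPR D had the lowest total value, 698.2, in replicate 1.

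LDHA, which turns pyruvate into lactate, was at 1521, 2645 and 1269.9 in control cells, 1386, 1352 and 1022 with TPR A and 899, 1246 and 955 with TPR D in total RNA. Its nuclear values were 2646, 1580.0 and 2613 in control cells, 1827, 2583 and 2280.1 with TPR A and 2009, 2615 and 1815 with TPR D. Its cytoplasmic/ER values were 2188, 1752 and 1870.2 in control cells, 1554, 2309 and 1294 with TPR A and 1349, 2273 and 1551 with TPR D. In total RNA the 3 TPR D libraries lay below the 3 control libraries, as they did for GAPDH, PKM and HK2 and for 7.93% of all genes, and for the same 4 members and 1905 of the 14611 genes without control replicate 2. Of the TPR A values of LDHA, 2 exceeded the lowest control value.

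The 9 genes other than HK2 rose and fell together from library to library within a group. After subtracting the group means, the correlation with GAPDH over the 27 libraries was 0.94 for ENO1, 0.93 for PGK1 and ALDOA, 0.92 for PKM and TPI1, 0.90 for LDHA, 0.86 for GPI and 0.78 for PGAM1. It was 0.073 for HK2, and the median over all genes was -0.010. Points of one library share its scaling and its RNA, so these values describe the libraries. All 9 genes lay above the group mean in 7 of the 27 libraries and all 9 lay below it in 10. In the cytoplasmic/ER libraries of replicate 2 their median deviation was 0.62 in TPR A and 0.71 in TPR D cells, all 9 genes being above the mean in both. HK2 deviated by -0.21 and -0.19 there. In the control libraries labelled total and nuclear of replicate 2 the medians were 0.77 and -0.59. Leaving out control replicate 2, the correlations were 0.79 to 0.95 for the same 8 genes and -0.070 for HK2.

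**Figure D2:**
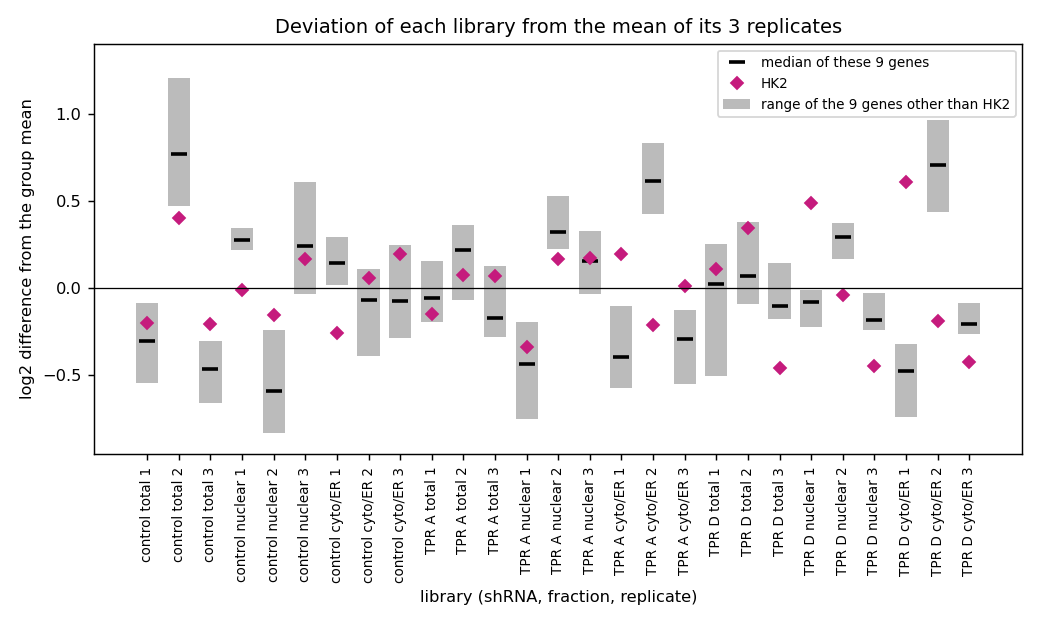
Log2 difference of each of the 27 libraries from the mean of its 3 replicates. Grey bars span the 9 genes other than HK2, black dashes are their median and diamonds are HK2. The 9 genes move as a block, up to a median of 0.77 in control total replicate 2, while HK2 does not follow them.

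In total RNA most of these mRNAs were lower than in either fraction of the same culture. GAPDH total levels were 1.35 to 2.35 times below the lower of its own nuclear and cytoplasmic/ER levels in the 8 cultures other than control replicate 2, with a median of 2.02-fold. The median was 2.18-fold for ENO1, 1.97 for PKM, 1.88 for ALDOA, 1.66 for TPI1, 1.64 for GPI, 1.51 for PGK1, 1.49 for LDHA and 1.45 for PGAM1. Over those 8 cultures the total library was below both fractions for 8 of the 10 genes, the exceptions being HK2 and PGK1, against 9.80% of all genes. PGK1 met this in 7 of the 8, and HK2 in none. With control replicate 2 included, none of the 10 met it in all 9 cultures, as did 0.171% of all genes. The scaling centres each library on the median gene, so these are differences relative to that gene. The part of any one step of the preparation in them was not tested.

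**Figure D3:**
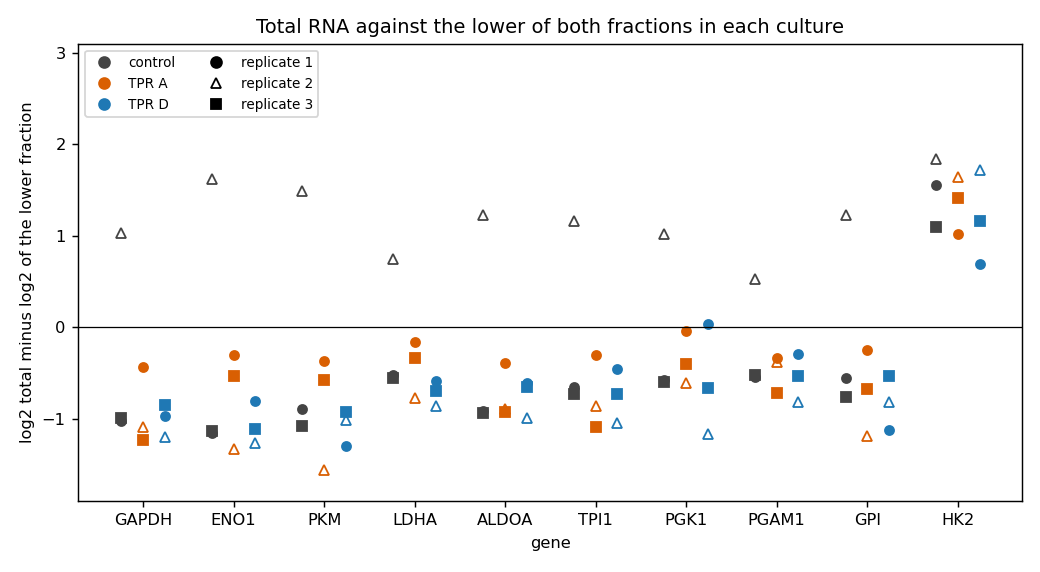
Log2 level in total RNA minus the log2 level in the lower of both fractions of the same culture, for each gene and culture, with symbols as in the plot of levels. Every point of 8 genes lies below 0 except the open black triangles, which are control replicate 2, and HK2 lies above 0 in all cultures.

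The N/C ratio, the nuclear over the cytoplasmic/ER level of a culture, was then read for each gene on the log2 scale, and the members are described in 3 sets, made after their values were seen. HK2 was nuclear, with 1.80, 1.34 and 1.53 in control cells, 0.93, 1.84 and 1.62 with TPR A and 1.18, 1.44 and 1.28 with TPR D. Its nuclear level was 2.94 times the cytoplasmic/ER level in control cells, a log2 difference of 1.56 (SE 0.28, adjusted p = 0.000183), and the difference was 1.47 (SE 0.28, adjusted p = 0.000502) with TPR A and 1.30 (SE 0.28, adjusted p = 0.00114) with TPR D. Without the 2 doubtful control libraries the control value was 1.63. In control cells HK2 stood above 93.9% of all genes in this difference.

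GAPDH, ALDOA, TPI1, PGAM1 and GPI leaned to the cytoplasmic/ER fraction. GAPDH log2 N/C ratios were -0.61, -1.23 and -0.70 in control cells, -0.35, -0.65 and 0.048 with TPR A and -0.0058, -1.11 and -0.77 with TPR D. TPI1 ratios were -0.80, -1.39 and -0.61 in control cells, -0.53, -0.52 and 0.0097 with TPR A and -0.21, -1.01 and -0.57 with TPR D, and the control difference of -0.93 (SE 0.31, adjusted p = 0.0223) passed the threshold, a 1.91-fold excess in the cytoplasmic/ER fraction. Without the 2 doubtful libraries it was -0.70 and did not pass (adjusted p = 0.0606). ALDOA ratios were -0.58, -1.55 and -0.59 in control cells, -0.51, -0.59 and 0.22 with TPR A and -0.29, -1.14 and -0.75 with TPR D. For PGAM1 they were -0.54, -0.99 and -0.39 in control cells, -0.37, -0.51 and -0.04 with TPR A and -0.22, -0.51 and -0.40 with TPR D, and for GPI -0.81, -1.02 and -0.43 in control cells, -0.59, -0.68 and 0.14 with TPR A and -0.43, -1.13 and -0.74 with TPR D. Control differences were -0.84 (SE 0.35, adjusted p = 0.0594) for GAPDH, -0.91 (SE 0.37, adjusted p = 0.058) for ALDOA, -0.64 (SE 0.26, adjusted p = 0.0506) for PGAM1 and -0.75 (SE 0.37, adjusted p = 0.111) for GPI. Without the doubtful libraries they were -0.49 (adjusted p = 0.247), -0.61 (0.176), -0.52 (0.122) and -0.54 (0.248), all in the same direction.

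ENO1, PKM, PGK1 and LDHA had smaller control differences, of either sign. These were -0.25 (SE 0.47, adjusted p = 0.702) for ENO1, -0.20 (SE 0.43, adjusted p = 0.742) for PKM, 0.18 (SE 0.33, adjusted p = 0.699) for PGK1 and 0.20 (SE 0.28, adjusted p = 0.598) for LDHA. Without the doubtful libraries all 4 were positive: ENO1 and PKM turned to 0.11 and 0.22, and PGK1 and LDHA came to 0.52 and 0.45 (adjusted p = 0.166 and 0.185). ENO1 ratios were -0.035, -0.89 and 0.18 in control cells, 0.22, 0.13 and 0.94 with TPR A and 0.52, -0.67 and 0.0052 with TPR D, and PKM ratios -0.12, -0.64 and 0.16 in control cells, 0.076, -0.14 and 0.73 with TPR A and 0.38, -0.80 and -0.093 with TPR D. PGK1 ratios were 0.35, -0.45 and 0.63 in control cells, 0.52, 0.34 and 0.97 with TPR A and 0.62, 0.08 and 0.48 with TPR D. LDHA ratios were 0.27, -0.15 and 0.48 in control cells, 0.23, 0.16 and 0.82 with TPR A and 0.57, 0.20 and 0.23 with TPR D. PGK1 and LDHA were thus above 0 in every culture but control replicate 2.

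By count, 2 of the 10 genes passed the limma test at an adjusted p of 0.05 in control cells, TPI1 and HK2, against 39.4% of all genes. It was 1 gene under either TPR shRNA, HK2, against 28.4% and 31.7%. Both fractions of a culture come from the same cells, and with the culture as a replicate block 5 of the 10 passed in control cells, against 46.0% of all genes: GAPDH (adjusted p = 0.0369), ALDOA (0.0306) and PGAM1 (0.0210) in addition. Without the doubtful libraries 1 passed, HK2, against 38.6%, and with the block as well 3 passed, HK2, TPI1 (0.0233) and PGAM1 (0.0447), against 47.7%, GAPDH being at 0.113 and ALDOA at 0.0777. That last setting left the values of TPR A and TPR D cells as they were but lowered their p: with TPR A PGK1 (0.0207) joined HK2, against 44.5% of all genes, and with TPR D GAPDH (0.0376), ALDOA (0.0171), TPI1 (0.0244) and GPI (0.0148) joined it, against 47.2%. These settings without libraries were chosen after seeing the data. In the same direction in all 9 cultures were HK2, with nuclear above cytoplasmic/ER levels like 24.0% of all genes, and PGAM1, with the reverse like 23.9%. Without control replicate 2, PGK1 and LDHA joined HK2, which 27.3% of all genes did, and PGAM1 remained alone on the other side, with 26.7% of all genes.

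**Figure D4:**
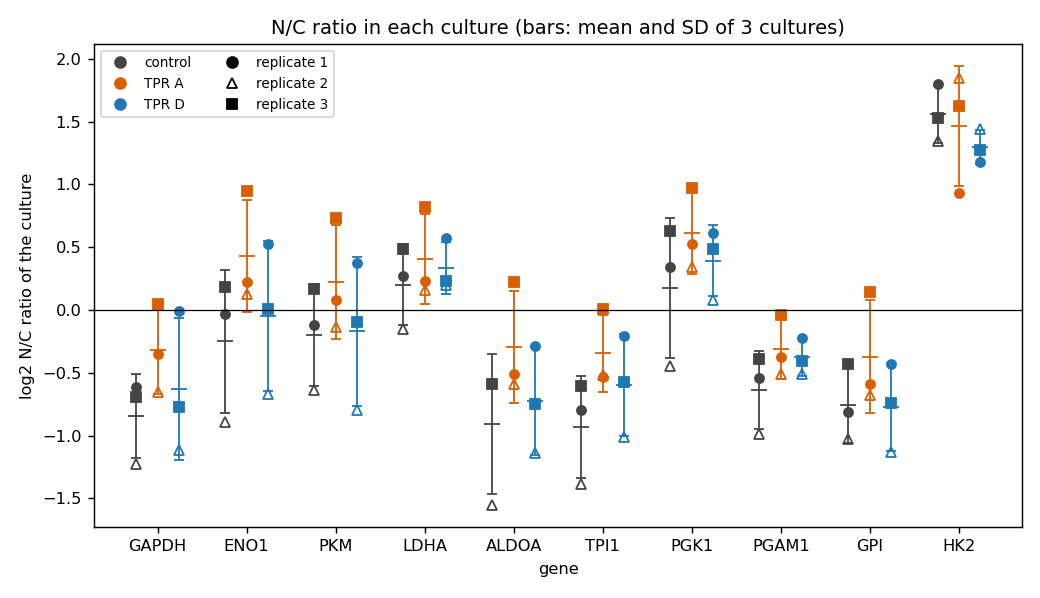
Log2 N/C ratio of each gene in each of the 9 cultures, with the mean and SD of the 3 cultures of each shRNA. HK2 lies between 0.93 and 1.84, PGAM1 lies below 0 throughout, and the open triangles (replicate 2) are the lowest control and TPR D cultures of most genes.

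Read against GAPDH in the same culture, the N/C ratios of ALDOA, ENO1, PGK1, PKM, TPI1 and GPI varied less than on their own, with an SD over the 9 cultures of 0.16 to 0.23 in place of 0.38 to 0.56. LDHA (0.25 and 0.28) and PGAM1 (0.25 and 0.26) varied about alike, and HK2 varied more (0.55 and 0.30). PGK1 exceeded GAPDH by 0.62 to 1.33 on the log2 N/C scale, with a median of 0.96, and did so in all 9 cultures. LDHA exceeded it by 0.58 to 1.31 (median 0.89), ENO1 by 0.33 to 0.90 (0.58), PKM by 0.32 to 0.86 (0.52) and HK2 by 1.18 to 2.57 (2.22), each in all 9 cultures, as did 37.3% of all genes. ALDOA, TPI1, PGAM1 and GPI stood on both sides of GAPDH, with medians of 0.020, -0.039, 0.14 and -0.019. Scaling every library to equal GAPDH raised all genes alike: the median nuclear minus cytoplasmic/ER difference of all genes became 0.80 in control, 0.32 in TPR A and 0.60 in TPR D cells, and 4940 of the 5053 control calls were of higher genes. PGK1 and LDHA, at 1.02 and 1.05 in control, 0.93 and 0.72 in TPR A and 1.02 and 0.96 in TPR D cells, lay above that shift, and whether they exceed it was not tested. In this scaling 5 of the other 9 genes passed in control cells, 4 in TPR A cells and 3 in TPR D cells, against 34.6%, 10.7% and 21.2% of all genes, and these counts carry the shift.

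TPR depletion was then compared with control in total RNA. No member passed the test, against 0.821% of all genes with TPR A and 0.753% with TPR D. A block for the replicate number raised the calls to 378 and 461 genes, again without a member. All 10 differences were negative with both shRNAs, with medians of -0.34 and -0.62, where the medians of all genes were -0.0053 and -0.010. HK2 differed by -0.60 (SE 0.28, adjusted p = 0.369) with TPR A and by -0.78 (SE 0.28, adjusted p = 0.187) with TPR D. GAPDH differed by -0.55 (95% interval -1.27 to 0.18, adjusted p = 0.538) and -0.54 (-1.27 to 0.18, 0.479). The 6 TPR-depleted total libraries lay below all 3 control libraries for GAPDH and HK2, like 2.98% of all genes, and below the remaining control libraries for the same 2 genes without control replicate 2, like 5.89%.

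This common sign rested on one library. Without the total and nuclear libraries of control replicate 2, 4 of the 10 total differences were negative for the TPR A shRNA and 7 for TPR D, and the medians were 0.034 and -0.25. GAPDH was then at -0.22 and -0.22, and HK2 at -0.40 and -0.58. ENO1, at -0.96 with TPR D, came to -0.36, PKM went from -0.83 to -0.40, LDHA from -0.75 to -0.44 and GPI from -0.70 to -0.29. ALDOA, TPI1, PGK1 and PGAM1 were between -0.034 and 0.069 with TPR D in that setting. The test of TPR A against TPR D in total RNA passed for no member, against 0.281% of all genes, and PKM, at 0.44 (95% interval -0.44 to 1.33), had the largest of these differences.

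In the nuclear fraction no member passed either, against 0.903% of all genes with TPR A and 0.479% with TPR D. HK2 was the lowest difference in both, -0.55 (SE 0.28, adjusted p = 0.432) and -0.73 (SE 0.28, adjusted p = 0.359), and its 6 TPR-depleted nuclear libraries lay below all 3 control ones, as for 3.24% of all genes. Without the doubtful control library the HK2 values were -0.63 and -0.81. The largest positive difference was that of PKM with TPR A, 0.50 (SE 0.43, adjusted p = 0.682), which came to 0.086 without that library. GAPDH differed by 0.059 (95% interval -0.67 to 0.78) and 0.14 (-0.59 to 0.86), and without that library it turned to -0.29 and -0.22.

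In the cytoplasmic/ER fraction, whose control libraries are not in doubt, no member passed, against 0.623% of all genes with TPR A and 0.575% with TPR D. The member medians were -0.23 and -0.086. GAPDH differed by -0.47 (95% interval -1.19 to 0.26) with TPR A and by -0.079 (-0.80 to 0.65) with TPR D. ENO1 had the lowest value with TPR A, -0.48 (SE 0.47, adjusted p = 0.783), and HK2 with TPR D, -0.47 (SE 0.28, adjusted p = 0.663). For none of the 10 did the 6 TPR-depleted libraries all lie below the 3 control ones, which 2.89% of all genes did. Replicate 2 was the highest TPR A and TPR D library for all members but HK2. Without replicate 2 of all shRNAs the member medians were -0.47 and -0.39. The members other than HK2 moved together between libraries, so these medians do not rest on independent values. This setting was chosen after seeing the data. GAPDH was then at -0.94 with TPR A and missed the threshold (limma adjusted p = 0.0918, the lowest of any member against control over all settings), with 0.694 on all libraries and 0.416 to 1 in the other settings.

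**Figure D5:**
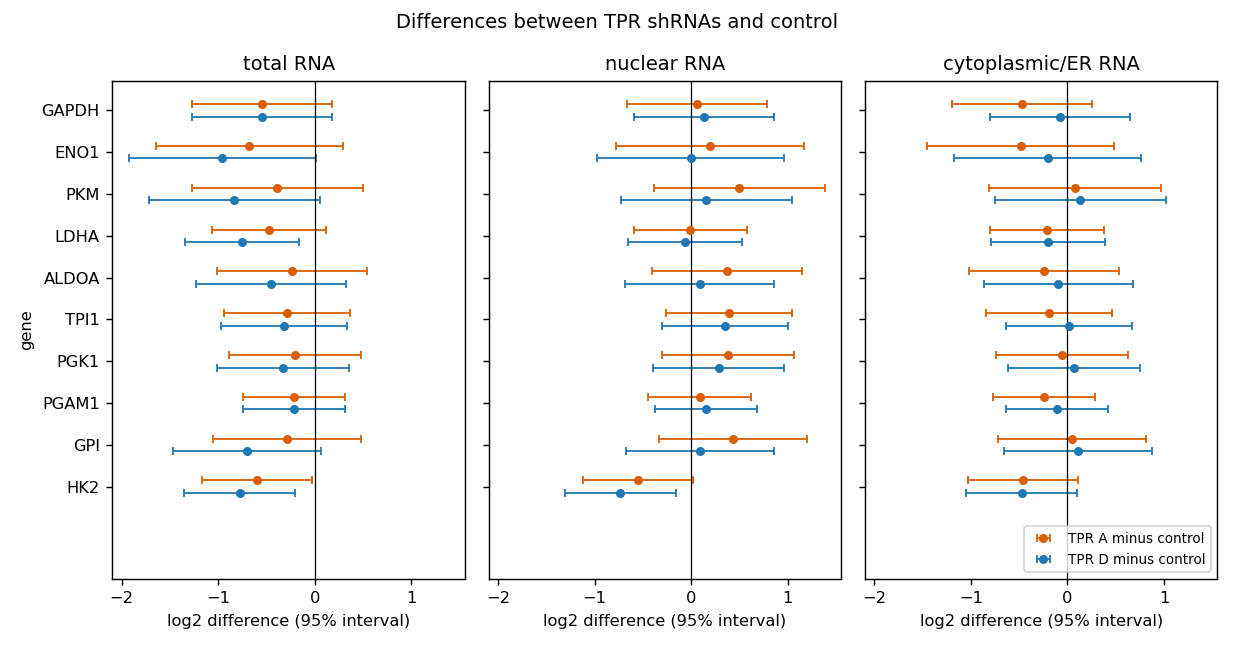
Log2 difference from control with its 95% interval for each gene in total, nuclear and cytoplasmic/ER RNA, for TPR A and TPR D. All points in the total panel lie left of 0, from -0.96 to -0.20, and most intervals in all panels include 0.

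The N/C ratio was compared between TPR-depleted and control cells, which is the comparison the fractionation was made for. With TPR A, TPR D and the mean of both, limma called 0 of all genes (0%), with 215, 120 and 251 genes at an unadjusted p under 0.05, and none of the 10 among these. GAPDH N/C ratios changed by 0.52 (SE 0.50, adjusted p = 0.987) with TPR A and 0.21 (SE 0.50, adjusted p = 1) with TPR D. With both together the GAPDH value was 0.37 (95% interval -0.52 to 1.26). The fit took both fractions of a culture as independent, so these SE and intervals leave out their pairing. With the culture as a replicate block no member passed either. TPI1 had the largest value for both together, 0.46 (-0.34 to 1.26), and HK2 the lowest, -0.17 (-0.87 to 0.53). The 10 genes had a median of 0.43 under TPR A and 0.19 under TPR D. For no member did the 6 TPR-depleted cultures all lie above the 3 control cultures, which 3.07% of all genes did, and none did so without control replicate 2, when 4.09% did.

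Without the doubtful nuclear library of control replicate 2, the medians came to 0.17 for the TPR A shRNA and -0.13 for TPR D, and 8 and 2 of the 10 values were positive. GAPDH was then at 0.17 and -0.14, ALDOA at 0.32 and -0.11, and TPI1 at 0.35 and 0.097. PKM moved from 0.42 and 0.025 to 0.0062 and -0.39.

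Pre-mRNA length bears on this comparison, since the study asked whether short transcripts depend more on TPR. The N/C changes of all protein-coding genes had a median of 0.28 under TPR A and 0.17 under TPR D for pre-mRNAs under 10 kb (3289 genes) and of -0.23 and -0.17 over 50 kb (3408 genes). GAPDH, ALDOA, TPI1 and PGAM1, all under 10 kb, had changes of 0.52, 0.61, 0.58 and 0.33 with TPR A and of 0.21, 0.18, 0.33 and 0.26 with TPR D. The quartiles of the genes of that length were 0.042 and 0.49 with TPR A, so that GAPDH, ALDOA and TPI1 lay above the upper one and PGAM1 between them. With TPR D the quartiles were -0.014 and 0.36, and all 4 lay between them. The median pre-mRNA of PGK1 and HK2 was over 50 kb. HK2 had -0.091 and -0.26, between the quartiles of its length in both, and PGK1 had 0.44 and 0.22, above the upper quartiles of -0.0089 and 0.00024. The PGK1 median of 120629.5 nt was taken over 2 transcripts, and the one with the longest mRNA had a pre-mRNA of 25048 nt. By that transcript PGK1 fell among genes of 20 to 30 kb, whose upper quartiles were nearer to its values, at 0.24 and 0.16. Among the genes of 10 to 20 kb ENO1 (0.68) and GPI (0.38) lay above the upper quartile of 0.30 with TPR A and LDHA (0.20) did not, and PKM (0.42), of 30 to 40 kb, lay above its 0.19. With TPR D these 4 lay between the quartiles of their length. Without the doubtful libraries the genes under 10 kb had medians of 0.18 and 0.081 and those over 50 kb of -0.18 and -0.12. With TPR A only ENO1 and PGK1 of the 10 were then above the upper quartile of their length, at 0.33 and 0.093, and with TPR D GAPDH (-0.14), PKM (-0.39), GPI (-0.23) and HK2 (-0.33) were below the lower one. These places use the median pre-mRNA, and that of PGK1 by its longest transcript was not tested in this setting.

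Other genes of the pathway were read from fixed lists. Of 23 other glycolytic isozymes and steps, 12 were expressed above the minimum, and none was called in any of the 9 comparisons with control. In control total RNA, with the doubtful replicate 2 library second, the enolases ENO2 and ENO3 were at 43.2, 97.4 and 46.7 and at 6.59, 16.8 and 9.76 FPKM, and the aldolase ALDOC at 8.07, 12.2 and 8.34, all below ENO1 and ALDOA. LDHB, the heart-type lactate dehydrogenase, was at 1501, 3091 and 1371, close to LDHA, and HK1 was above HK2. Between fractions PFKM, a phosphofructokinase, was higher in the nucleus in all 3 shRNA groups, by 0.78 in control cells (SE 0.28, adjusted p = 0.0306), 1.01 in TPR A cells and 0.73 in TPR D cells, and by 1.09 in control cells without the doubtful libraries. ADPGK, an ADP-dependent glucokinase, was higher there by 0.66 in control cells, a call lost without them (0.57, adjusted p = 0.0638), and by 0.68 with TPR D, and LDHC by 1.09 with TPR D. Without the doubtful libraries LDHB (0.67, adjusted p = 0.0106) was called higher in the nucleus in control cells and BPGM (-0.89, adjusted p = 0.0198) lower. LDHB was also called higher in TPR A and TPR D cells in that setting. Of the 12 tested genes, 2 were higher and 0 lower in control cells, against 39.4% of all genes called. Without the doubtful libraries 2 were higher and 1 lower, against 38.6%.

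Of 9 glucose and lactate transport genes, 8 were tested, and 0 were called against control in any fraction. Without the doubtful libraries 1 of the 8 was called, SLC16A1, which was lower than control in the nuclear fraction with TPR A. In control cells 3 were higher in the nucleus: SLC16A1, the lactate carrier MCT1, by 1.74 (SE 0.24, adjusted p = 1.74e-05), SLC16A7 by 1.35 and the glucose transporter SLC2A3 by 1.14. That is 3 of 8, where 39.4% of all genes were called, and 4 of 8 without the doubtful libraries, where 38.6% were. SLC16A1 and SLC2A3 were also called with TPR A (1.64 and 1.45) and with TPR D (1.69 and 1.34). Of 17 tested regulators of glycolysis, 4 were higher in the nucleus and 2 in the cytoplasm in control cells, none passed against control, and the largest differences were those of PDP1 (1.53), PFKFB2 (1.37) and HIF1A (1.24). The 6 of 17 called, 7 of 17 without the doubtful libraries, stood beside those same shares of all genes. HIF1A, the oxygen-regulated subunit of HIF1, was not called between fractions with TPR A or TPR D.

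Of 9 tested hypoxia-responsive genes outside the 10, none was called against control. In control cells 2 were higher in the nucleus, KDM3A (1.39) and P4HA1 (1.12), and 2 in the cytoplasmic/ER fraction, among them the mitophagy receptor BNIP3 (-1.07), 4 of 9 with and without the doubtful libraries, again beside 39.4 and 38.6% of all genes. In the other lists 0 of 3 gluconeogenesis genes, 0 of 7 of the pentose phosphate pathway and 0 of 21 of the tricarboxylic acid cycle were called against control. The 7 pentose phosphate genes all had negative total differences with both shRNAs (medians -0.38 and -0.38), as the 10 glycolysis genes did with the same control libraries, and 18 of the 21 tricarboxylic acid cycle genes did with each. Without the doubtful libraries 4 and 6 of the 7 and 9 and 11 of the 21 were negative. Between fractions in control cells, 1 gluconeogenesis gene, G6PC3 (-0.80), and 1 pentose phosphate gene, PGLS (-1.51), were lower in the nucleus. The first call was lost without the doubtful libraries (-0.47, adjusted p = 0.198). In that setting 2 of the 3 gluconeogenesis genes were instead called higher in the nucleus, PCK2 (0.77, adjusted p = 0.0296) and PC (1.13, adjusted p = 0.0196). Of the tricarboxylic acid cycle, 4 genes were higher there and 2 lower, led by DLD (1.31), which is 6 of 21, and 7 and 2 without the doubtful libraries, against 39.4 and 38.6% of all genes.

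Over the 27 libraries the genes outside the 10 with levels most like GAPDH were EIF2B2, a translation initiation factor subunit (r = 0.98), ACTR1A, of the dynactin complex (0.97), CFL1, cofilin (0.97), TIMM50, of the mitochondrial import machinery (0.96), and IFITM3 (0.96). Among the members TPI1 ranked 16th of all genes by this measure (0.95) and ALDOA 19th (0.95), PGAM1 104th and GPI 180th. ENO1 and PKM (0.86 and 0.85), LDHA (0.72) and PGK1 (0.68) ranked lower, and HK2 was negative (-0.47). The points share the fractions as well as the libraries, so this measure mixes the split between fractions with the movement between libraries. The part of each was not tested.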

How the data were processed

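Poly(A)+ RNA of 27 libraries was sequenced by the authors, quantified per transcript with Salmon (protein-coding genes and lncRNAs, hg19) and summarised per gene. The authors deposited FPKM, and GEO's processing notes also name DESeq2; no counts were used here. The analysis used the 14611 genes whose mean exceeded 1 FPKM, other than 13 encoded in mitochondrial DNA. Libraries were scaled by the median of ratios and values read as log2(FPKM + 0.1), which understates the change of low genes. All 27 libraries were fitted in 9 groups of shRNA and fraction with limma 3.58.1 (R 4.3.3; eBayes with trend) across all genes, adjusted after Benjamini and Hochberg at 0.05, and the fit was tested on simulated data. This main fit had no block for the culture, and the SE and 95% intervals are those of this fit for a single gene. N/C changes are interactions of shRNA and fraction.

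Named were all 10 genes in every comparison, of the fixed lists the genes past the threshold (at most 3 a list, by size), paralogs, TPR, and the 5 genes most correlated with GAPDH. The members and lists were chosen with earlier results of these data known. Same-numbered libraries are nuclear, cytoplasmic/ER and total RNA of one culture, and their deviations from the group means correlated at 0.22 to 0.47 between nuclear and cytoplasmic/ER RNA. Between shRNAs the number marks no stated batch, and the correlations exceeded 0.1 in every pair for control and TPR A total RNA and for TPR A and TPR D in both fractions. Gene structure came from GENCODE release 44 mapped to GRCh37, which matched 32776 of 34464 gene IDs. The processed files give no read totals, and the depth was estimated from 5841 genes with 1 transcript, of whose low values 85.6 to 89.0% lay within 0.1 of a whole read.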

Additional observations from a re-analysis of the deposited data

How the results depend on the processing

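Across 24 alternative settings, 2778 of 3107 values of single genes counted as unchanged, which meant the same direction and the same side of the threshold. The setting with only replicate 1 had no test. There a value counted as unchanged when it moved by no more than the replicate spread of the members' median. No gene of the 10 passed in any comparison of a TPR shRNA with control, N/C ratios included, under any setting with a test. In the nuclear minus cytoplasmic/ER comparison of control cells the 2 called genes became 5 with the replicate number as a replicate block, 5 with the culture as a replicate block, 5 with every library scaled to GAPDH, 4 with only the compared groups in the fit, 1 with no minimum level, 1 with only replicates 2 and 3 (whose descriptions follow another style than those of replicate 1), and 1 without the nuclear and total libraries of control replicate 2, a setting chosen after seeing the data. That setting together with the culture as a replicate block gave 3 in control cells, and 2 with TPR A and 5 with TPR D in place of 1 each. Leaving out one culture at a time gave 1 to 4: TPI1 was lost without control replicate 1 (adjusted p = 0.0711) or control replicate 2 (0.107), and GAPDH, ALDOA or PGAM1 passed without TPR A or TPR D replicate 2. With TPR A the 1 called gene became 4 when scaled to GAPDH and 2 without replicate 2 of all shRNAs, also chosen after seeing the data, and with TPR D 3 when scaled to GAPDH. In control cells the GAPDH scaling reversed ENO1 (0.60, adjusted p = 0.0379) and PKM (0.65, adjusted p = 0.0182), but it moved the median of all genes to 0.80, above both. The replicate block on all libraries changed no other call of a member. Over all genes, calls against control moved from 120 to 378 (TPR A, total), 110 to 461 (TPR D, total), 132 to 375 and 70 to 229 (nuclear), and 91 to 328 and 84 to 261 (cytoplasmic/ER) when blocked by replicate number, and to 1, 5, 3, 1, 2 and 6 with only the compared groups in the fit. With only replicates 2 and 3 the TPR D calls were 0 in each fraction. For N/C changes 0 to 2 genes passed under the settings tried. By the longest in place of the median transcript, PGK1 and GPI changed their length class. The precision is limited by 3 cultures a group: the median SE over genes was 0.30 for a difference in total RNA and 0.42 for an N/C change. Both are from the main fit, which leaves out the pairing of fractions within a culture.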
